A study of Mus musculus with 10 samples.

Results

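Liver ILC1 of mice given tofacitinib were compared with liver ILC1 of mice given vehicle, library by library and within sequencing runs. ILC1 are tissue-resident innate lymphocytes that lack an antigen receptor, carry NKp46 and release interferon gamma. The comparison rests on 5 of the 10 libraries of the series: 3 of vehicle and 2 of tofacitinib, chosen by their labels alone. The other 5 libraries hold splenic NK cells. They were fitted on their own by the same steps and enter only a comparison of responses between both cell types. All mice were BALB/C, with no genetic change named. The treated mice received 30 mg/kg of tofacitinib by oral gavage 2 times per day for 7 days, and the controls received vehicle on the same schedule. ILC1 were sorted from liver as CD3- NKp46+ DX5dim TRAIL+ cells, and cells of several mice were pooled. Age is not given in the sources used here. Whether libraries of a group came from separate pools of mice is not given in the sources used here, so each p-value reflects only how far these libraries vary among themselves, which may be technical, and in bulk RNA a change in the mix of cells and a change of RNA per cell cannot be told apart.

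Janus kinases (JAKs) sit on the inner side of cytokine receptors and, once a cytokine binds, phosphorylate STAT transcription factors, which then enter the nucleus and switch genes on. In ILC1 and NK cells, interleukin-15 and interleukin-7 signal through JAK1, JAK3 and STAT5 and maintain survival and division, while interferons signal through JAK1 and other STAT factors. Tofacitinib occupies the kinase pocket of JAK1 and JAK3 and, less strongly, of JAK2. The comparison asks which transcripts of liver ILC1 differ when this signal is held down for a week, and whether the difference is seen within each sequencing run.

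The libraries had 45647066 to 66914378 alignments, and any pair of them correlated at 0.936 to 0.977 across genes on the log2(RPKM + 0.1) scale. RPKM is a read number divided by exon length and by the mapped reads of the library. Each library was scaled to the same median over the 9366 genes tested, and levels below are scaled RPKM. A gene was tested if its mean log2(RPKM + 0.1) was above 1 in vehicle or in tofacitinib. Some calls thus entered only through the group where they are high. Among them are Bcl6, Abca1, Rhod and Hist1h4n through tofacitinib, and Cdh17, Cdk6, Usp18 and Ifi44 through vehicle. The sample sheet of the study puts vehicle 2 and tofacitinib 1 on a common sequencing run (run A), vehicle 3 and tofacitinib 2 on another (run B), and vehicle 1 on a run of its own. Values differed by run, and the run cannot be told apart from other steps that its libraries may share, such as sorting or library preparation. Vehicle 2 and tofacitinib 1 had 1824 and 1538 of 24981 genes at 0, against 4215 to 5717 in the other libraries. Deviations from the group mean correlated across genes at 0.628 in run A and 0.777 in run B. Because the deviations of the 2 tofacitinib libraries are equal and opposite, these 2 values are not independent. Tyms, the enzyme that makes thymidylate, is an example chosen after its values were seen. It stood at 72.5 and 44.9 in run A, at 8.87 and 8.92 in run B and at 16.9 in vehicle 1. Therefore 2 within-run differences are given beside the pooled change: tofacitinib 1 minus vehicle 2, and tofacitinib 2 minus vehicle 3. A fit with run as block rests on these 4 libraries, since vehicle 1 has no partner, and has 1 residual degree of freedom.

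The sorted cells had the transcripts of ILC1. Summed over 15 ILC1 marker genes, the level was 1369 to 1495 in vehicle and 1399 to 1599 in tofacitinib. Itga1, which encodes CD49a of tissue-resident lymphocytes, was at 26.3, 27.2 and 31.4 in vehicle and at 37.3 and 33.4 in tofacitinib. Eomes, the transcription factor of NK cells, was at 2.45, 4.22 and 3.99 in vehicle and at 2.89 and 5.25 in tofacitinib, and 13 NK markers together summed to 63.0 to 91.5 and 62.0 to 97.4. Tbx21, the transcription factor T-bet that ILC1 need, was at 122, 90.1 and 96.4 in vehicle and 110 and 95.6 in tofacitinib. Of 40 identity genes tested in the ILC1, NK and shared lists, 2 passed the test, where 2.67% of all genes tested did. A count this small does not set these lists apart. Il7r rose and Inpp4b, a phosphatase of inositol lipids, fell from 29.2, 30.1 and 31.1 to 18.4 and 18.0 (log2 -0.72, SE 0.10, adjusted p = 0.0229). With 1 library left out, Il7r was called only without tofacitinib 1 or without tofacitinib 2, and Inpp4b in none of these fits. Tnfsf10, the gene of the sorting marker TRAIL, was at 68.5 to 72.5 in vehicle and 61.1 and 52.3 in tofacitinib (adjusted p = 0.241).

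Transcripts of other blood cells were present unevenly. Tofacitinib 1 stood apart: its 10 neutrophil markers summed to 199 RPKM, against 2.32 to 22.8 in the vehicle libraries and 2.82 in tofacitinib 2, and its 10 erythroid markers to 463, against 1.21 to 51.0 and 13.2. S100a8 was at 50.8 in tofacitinib 1, at 0.0850 to 1.8 in vehicle and listed at 0 in tofacitinib 2. B cell and dendritic cell markers were higher in both tofacitinib libraries: the B cell sums were 5.47 to 15.1 in vehicle and 19.2 and 21.6 in tofacitinib, and the dendritic cell sums 24.1 to 49.3 and 56.7 and 81.6. T cell markers summed to 148 to 209 and 169 and 186, of which Cd3g gave 140 to 199. Cd3g is also 1 of the ILC1 markers summed above, so it counts in both sums. Cd3e, the chain used to gate T cells out, was at 1.91 to 4.81. Hepatocyte markers summed to 40.7 to 43.8 in vehicle and 48.7 and 58.6 in tofacitinib, of which Trf, also expressed by other cells, gave 35.4 to 42.9 and 45.2 and 56.6, while Alb was at or below 1.01 in every library. The macrophage and Kupffer cell markers summed to 2.06 to 8.75 in vehicle, 17.9 in tofacitinib 1 and 1.92 in tofacitinib 2. Lyz2 gave 15.9 of the sum in tofacitinib 1, and Clec4f of Kupffer cells was at or below 0.678 throughout. None of the 25 tested genes in the lists of other cells passed the test, where 2.67% of all genes tested did. With run as block 12 passed, all higher, while 2.71% of all genes tested were called higher. The part of these cells in the results below was not tested.

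**Figure D1:**
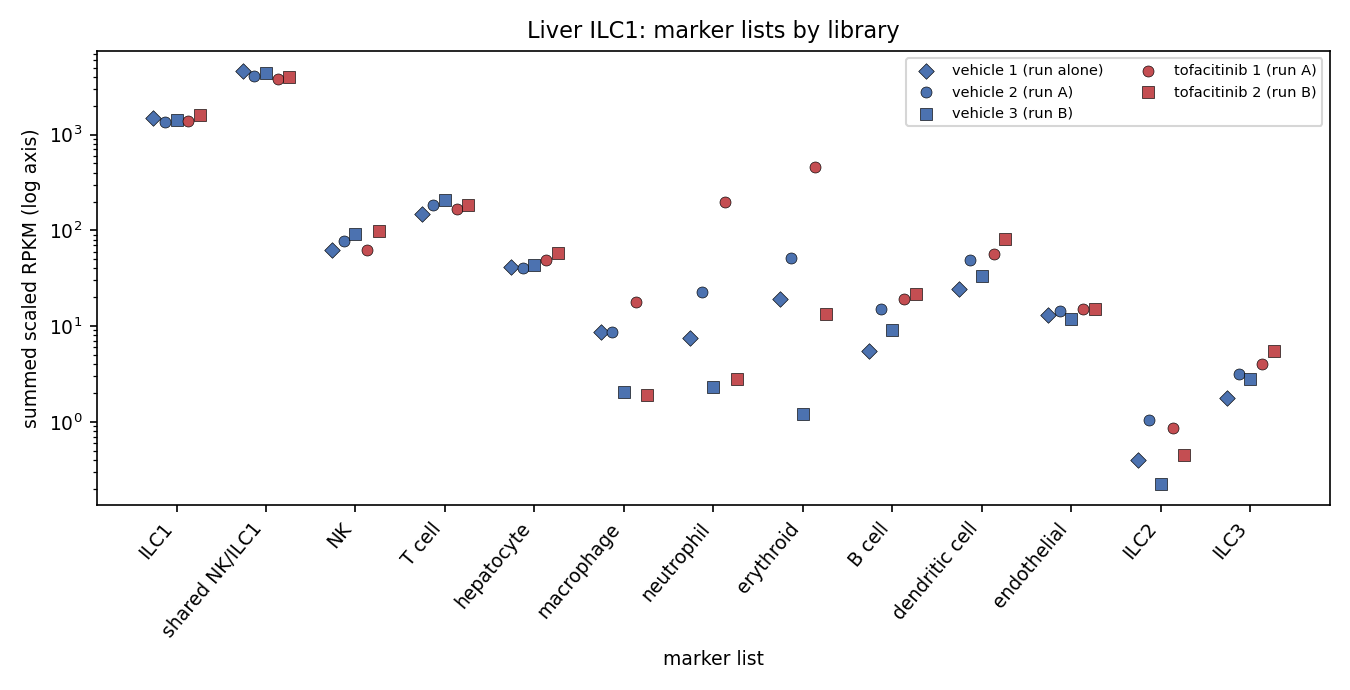
Summed scaled RPKM (log axis) of marker lists in the 5 ILC1 libraries. Blue symbols are vehicle, red symbols tofacitinib, circles share run A, squares share run B and the diamond is vehicle 1. The neutrophil and erythroid sums of tofacitinib 1 reach 199 and 463, while the ILC1 sums lie between 1369 and 1599 in all libraries.

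With tofacitinib, more genes were called lower than higher, while 4696 of all 9366 changes were below 0 and 4670 above. At adjusted p below 0.05, 204 genes were lower (2.18% of 9366 tested) and 46 were higher (0.491%), so that 81.6% of the calls were lower. The median log2 change was -0.96 among the lower calls and 0.84 among the higher ones, against 0.00 over all genes tested. In each of the 250 calls, both treated libraries were beyond all controls, which by itself gives both within-run differences the same sign. The calls came from these same values, so the shared sign is no separate evidence. Over all genes tested, 18.9% had both tofacitinib libraries below the vehicle range, 17.1% had both above, and 65.0% had the same sign in both runs. Both within-run differences were below 0 in 2995 of the 9366 genes and above 0 in 3093. These values over all genes are the background of the list counts below. In 81 genes (0.865%) both within-run differences were below -1 log2 unit and in 32 (0.342%) both were above 1. No gene was below -1 in one run and above 1 in the other. Few genes went that far in either run: 155 and 143 were below -1 in runs A and B, and 62 and 73 above 1. This 0 therefore says little about how the runs relate. With run as block, 496 genes were lower (5.3%) and 254 higher (2.71%), and all 250 calls were among them. The fit without vehicle 1 has the same log2 changes as the block and called 37 lower and 2 higher. With 1 residual degree of freedom, blocked p-values here and elsewhere lean on the variance shared over genes. The block also called all 6 tested erythroid markers higher. Without scaling, 26 genes were lower and 18 higher, so that 59.1% of the calls were lower.

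**Figure D2:**
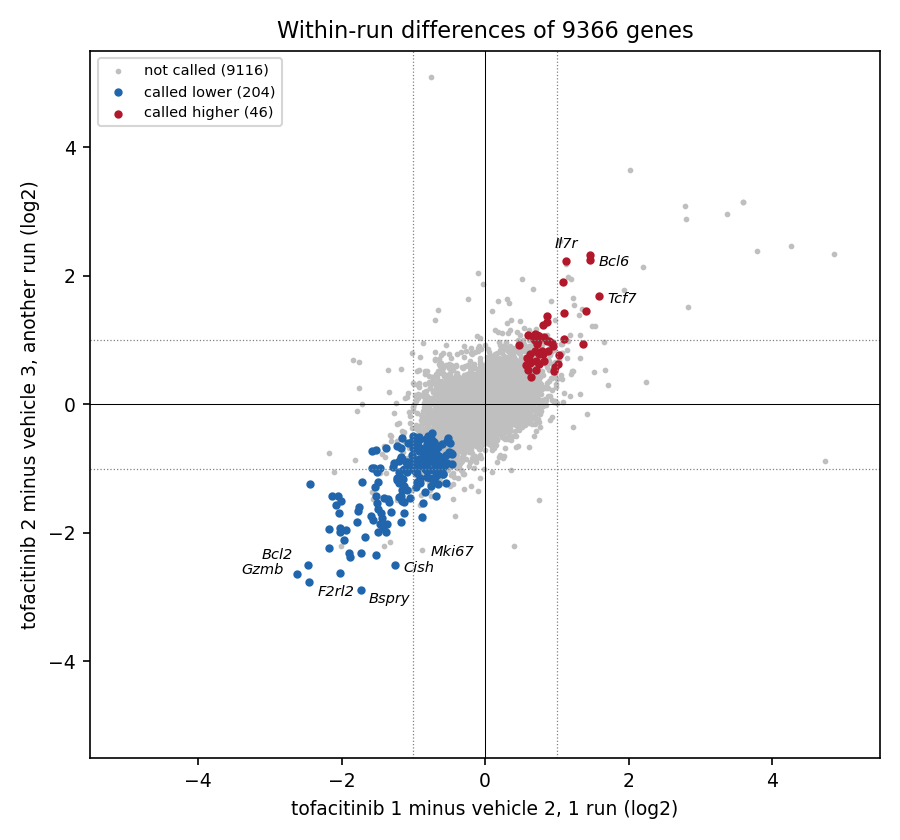
Difference between tofacitinib and vehicle (log2) within run A (x axis) and within run B (y axis) for the 9366 genes tested. Each point is a gene, blue and red points are the 204 lower and 46 higher calls, and dotted lines mark 1 log2 unit. All called genes lie in the quadrants where both runs have the same sign, which follows where both treated libraries lie beyond all controls. The grey points at the upper right with differences above 2 in both runs include hemoglobin genes.

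The calls depend on single libraries. A fit without tofacitinib 1 or without tofacitinib 2 has 1 treated library. Its p-values hold no spread among treated libraries, here and wherever such fits are given. Leaving out 1 library at a time gave 37 lower and 2 higher calls without vehicle 1, 63 and 6 without vehicle 2, 55 and 4 without vehicle 3, 77 and 18 without tofacitinib 1, and 16 and 2 without tofacitinib 2. Every one of these fits called a set of 15 genes: F2rl2, Gzmb, Bcl2, Serpina3f, Pim2, Tasp1, Cdca7, Serpina3g, Capg, Srm, Rrm2, Apex1, Ppa1 and Nme1 were lower and Tcf7 was higher. In 149 of the 250 calls, no such fit made the call, and no call changed its sign.

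The largest fall was that of F2rl2, which encodes the thrombin-sensitive receptor PAR3. It was at 19.5, 16.4 and 16.8 in the vehicle libraries and at 2.91 and 2.40 in the tofacitinib libraries. Both treated libraries were far below all controls. The log2 change was -2.68 (SE 0.14, adjusted p = 0.00232), and the within-run differences were -2.45 and -2.76. Bspry, a B-box and SPRY domain protein, went from 11.4, 9.13 and 12.0 to 2.67 and 1.52 (log2 -2.36, SE 0.24, adjusted p = 0.00876). Its runs differed, with -1.74 in run A and -2.89 in run B, and the call was lost without vehicle 1 (adjusted p = 0.0539). Cdh17, a cadherin of cell adhesion, was low throughout, at 1.75, 1.94 and 2.60 in vehicle and 0.405 and 0.340 in tofacitinib (log2 -2.20, SE 0.33, adjusted p = 0.0270), and no fit with 1 library left out called it (adjusted p 0.0866 to 0.118). Capg, an actin-capping protein named here because its call held in every fit with 1 library left out, fell from 40.8, 40.2 and 34.7 to 9.74 and 10.6 (log2 -1.91, SE 0.12, adjusted p = 0.00238). Etv3, a transcriptional repressor of the ETS family, went from 29.3, 27.1 and 37.8 to 14.7 and 11.1 (log2 -1.28, SE 0.19, adjusted p = 0.0248), by -0.88 in run A and -1.76 in run B, and was not called without vehicle 1 (adjusted p = 0.0991), vehicle 3 (0.0573) or tofacitinib 2 (0.154).

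**Figure D3:**
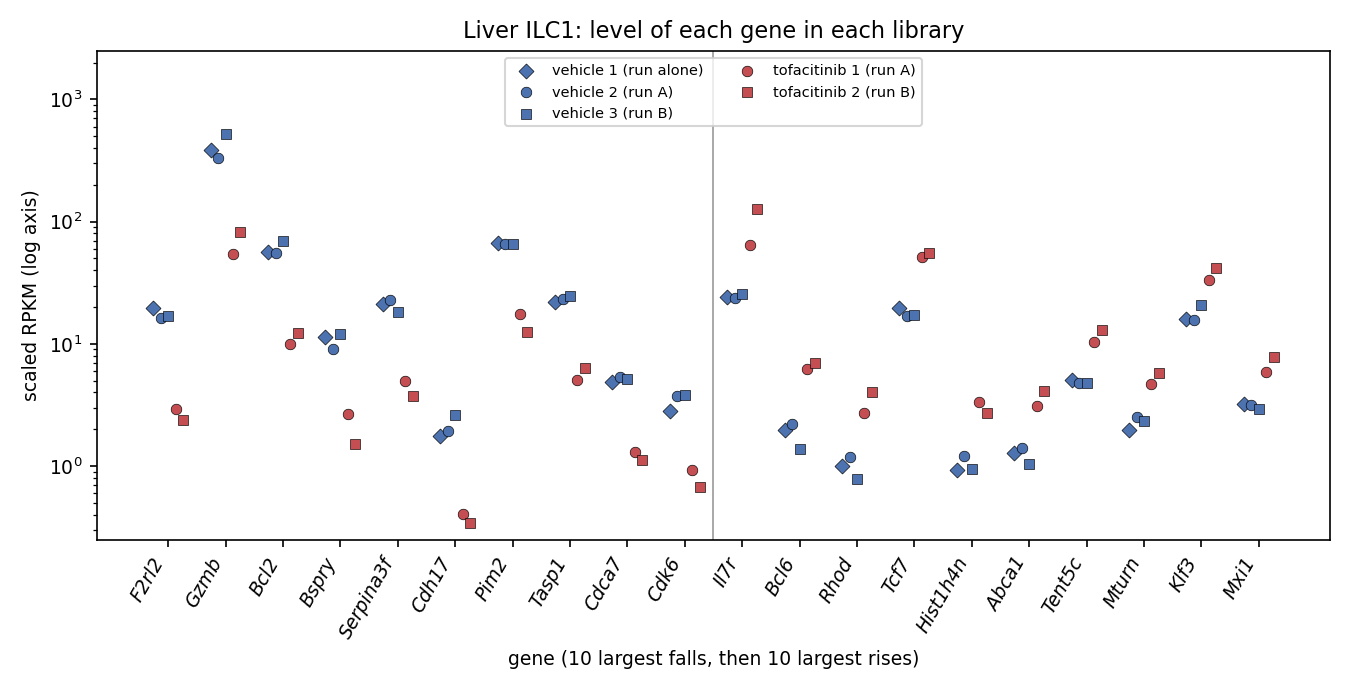
Level (scaled RPKM, log axis) of the 10 genes with the largest falls and the 10 with the largest rises among the calls, in each ILC1 library. Blue symbols are vehicle and red symbols tofacitinib, with circles for run A, squares for run B and a diamond for vehicle 1. The genes were chosen so that no red symbol lies within the range of the blue ones. F2rl2 goes from 16.4 or more to 2.91 or less, and Tcf7 from 19.7 or less to 51.5 or more.

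Among the known targets of STAT5, 8 of 15 tested fell and none rose, with a median log2 change of -1.07 (-1.10 in run A and -1.24 in run B), against 0.00 over all genes. All 15 had a change below 0, and 12 lay below the vehicle range without overlap. Over all genes tested, 2.18% were called lower and 18.9% lay below the vehicle range. The list was written with results of these data known, so its direction is no independent evidence. With run as block, 13 of the 15 were lower, against 5.3% of all genes tested. Of the 8 calls, 8 were called again without tofacitinib 1, 8 without vehicle 2, 7 without vehicle 3, 6 without vehicle 1 and 3 without tofacitinib 2. The median was -1.20 without tofacitinib 1, the library with neutrophil and erythroid transcripts.

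Negative regulators of the pathway were among them. Cish, which encodes CIS, a protein that STAT5 induces and that dampens cytokine receptors, was at 39.6, 29.6 and 40.1 in vehicle and at 12.3 and 6.97 in tofacitinib. Both treated libraries were below the controls, but the fall was unequal between runs, with -1.26 in run A and -2.51 in run B (pooled log2 -1.95, SE 0.25, adjusted p = 0.0171). It was not called without vehicle 1 (adjusted p = 0.0952), vehicle 3 (0.0573) or tofacitinib 2 (0.0777). Socs2, a suppressor of cytokine signaling of the same family, went from 31.5, 27.3 and 32.6 to 13.2 and 11.8 (log2 -1.28, SE 0.13, adjusted p = 0.00783). Socs1 was at 55.9, 40.8 and 48.2 and at 17.8 and 30.9, which missed the threshold (adjusted p = 0.0887, and 0.00112 with run as block). Socs3, best known as a target of STAT3, overlapped between the groups, with 7.19, 8.41 and 11.3 against 3.88 and 12.2.

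A kinase, a transcription factor and a cyclin of growth fell as well. Pim2, a serine/threonine kinase of cell survival, was at 66.8, 65.6 and 65.5 in vehicle and at 17.6 and 12.5 in tofacitinib. The controls were nearly level, with both treated libraries far below them (log2 -2.14, SE 0.16, adjusted p = 0.00342; -1.89 and -2.38 within runs). Pim1 was at 95.9 to 110 against 70.2 and 67.0 (adjusted p = 0.0585). Myc, which drives growth and division, fell from 22.1, 16.4 and 20.9 to 7.08 and 7.65 (log2 -1.40, SE 0.15, adjusted p = 0.00876), and Ccnd2, the cyclin D2 that opens the G1 phase, from 82.2, 94.2 and 91.9 to 34.8 and 26.9 (log2 -1.54, SE 0.15, adjusted p = 0.00783). Ccnd2 was not called without tofacitinib 2. Mxi1, an antagonist of Myc, rose from 3.20, 3.16 and 2.92 to 5.86 and 7.74 (log2 1.10, SE 0.16, adjusted p = 0.0254), a call made again only without tofacitinib 1.

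To show the letters that STAT5 is known to bind, the promoter windows of RefSeq (GRCm38.p6, 250 bases before to 50 after the start) were searched for TTCNNNGAA, which reads the same on both strands. Of 11 tested STAT5 targets with a window, 3 held it: Cish, Socs3 and Gzmb. The share was 8.30% of all 32851 windows, 8.40% of the tested genes and 9.70% of the lower calls. Below, 30 bases around the match are given for these genes, for Serpina3g of the lower calls and for Bcl6 and Il7r of the higher calls, the last 3 chosen after their values were seen. Capitals mark the matching letters. Cish has 2 matches that do not overlap. Bcl6 has 2 windows, the second with 3 matches of which 1 is shown.
Cish, chr9:107296654-107296683, plus strand: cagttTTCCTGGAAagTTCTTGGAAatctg
Socs3, chr11:117969501-117969530, minus strand: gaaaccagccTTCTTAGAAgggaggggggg
Gzmb, chr14:56262285-56262314, minus strand: gcagtagggcaggagttTTCATAGAAagca
Serpina3g, chr12:104236104-104236133, plus strand: taagttatagTTCCCAGAAatcacccggtc
Bcl6, chr16:23988951-23988980, minus strand: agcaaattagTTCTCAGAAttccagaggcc
Bcl6, chr16:23981432-23981461, minus strand: aggccgcggcTTCCTGGAAagttacttctc
Il7r, chr15:9529999-9530028, minus strand: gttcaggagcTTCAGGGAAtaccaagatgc
Genes of both directions thus carry the letters, and so does Socs3, whose groups overlapped. A match is a run of letters and says nothing of binding.

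Most receptors and kinases of the pathway did not pass the test. Of 27 tested JAK, STAT and cytokine receptor genes, 2 fell and 1 rose, and the median log2 change was -0.03; without tofacitinib 1 the fit called 1 lower and 2 higher. Jak1 was at 105 to 130 in vehicle and 117 and 147 in tofacitinib, and Jak3 at 46.6 to 69.9 and 63.9 and 37.8. Stat5a and Stat5b had log2 changes of -0.05 and 0.12 (adjusted p = 0.91 and 0.66). Il12rb1, a chain of the interleukin-12 receptor, fell from 36.6, 34.6 and 32.3 to 21.3 and 14.6 (log2 -0.96, SE 0.17, adjusted p = 0.0416). With 1 library left out, Il12rb1 was called only without tofacitinib 1. Il2rb, the receptor chain that binds interleukin-15, stood at 954, 771 and 914 in vehicle and at 532 and 542.4 in tofacitinib, without overlap, but did not pass (log2 -0.71, adjusted p = 0.0829). Il18r1, a chain of the interleukin-18 receptor, was at 34.1, 42.4 and 39.5 and at 59.7 and 83.6 (adjusted p = 0.0564, and 0.00442 with run as block).

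Il7r, the alpha chain of the interleukin-7 receptor, had the largest rise among the calls. It was at 24.1, 23.5 and 25.3 in vehicle and at 65.0 and 128 in tofacitinib. The controls differed little, whereas the treated libraries differed from each other, with 1.46 in run A and 2.33 in run B (pooled log2 1.90, SE 0.26, adjusted p = 0.0218). The call was lost without vehicle 1 (adjusted p = 0.0991), vehicle 2 (0.0649) or vehicle 3 (0.0592).

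Of the antiapoptotic Bcl2 family, which guards mitochondria against cell death, Bcl2 and Bcl2l1 fell and 4 other tested members did not pass. Bcl2 was at 56.3, 55.4 and 69.6 in vehicle and at 9.93 and 12.2 in tofacitinib. Every control had more than 4 times the level of every treated library, and the change was nearly the same in both runs (log2 -2.44, SE 0.15, adjusted p = 0.00238; -2.47 and -2.51). Bcl2l1, which encodes Bcl-xL, went from 24.3, 24.6 and 24.8 to 12.8 and 10.6 (log2 -1.07, SE 0.12, adjusted p = 0.00896), and lost its call without vehicle 1 (adjusted p = 0.0619) and without tofacitinib 2 (0.0781). Mcl1 overlapped, at 103, 103 and 131 in vehicle and 104 and 148 in tofacitinib (log2 0.15, adjusted p = 0.740). Among 7 proapoptotic relatives, only Bid, which links death receptors to mitochondria, fell, from 15.4, 13.2 and 15.6 to 8.22 and 8.37 (log2 -0.82, SE 0.12, adjusted p = 0.0248); of the fits with 1 library left out, only that without vehicle 2 called it. Bbc3, which encodes the killer protein PUMA, was at 8.11, 6.01 and 6.48 and at 11.5 and 19.9 (log2 1.14, adjusted p = 0.0671, and 0.00011 with run as block), and Bcl2l11, which encodes BIM, at 14 to 15.4 and 18.6 and 23.3 (adjusted p = 0.119).

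**Figure D4:**
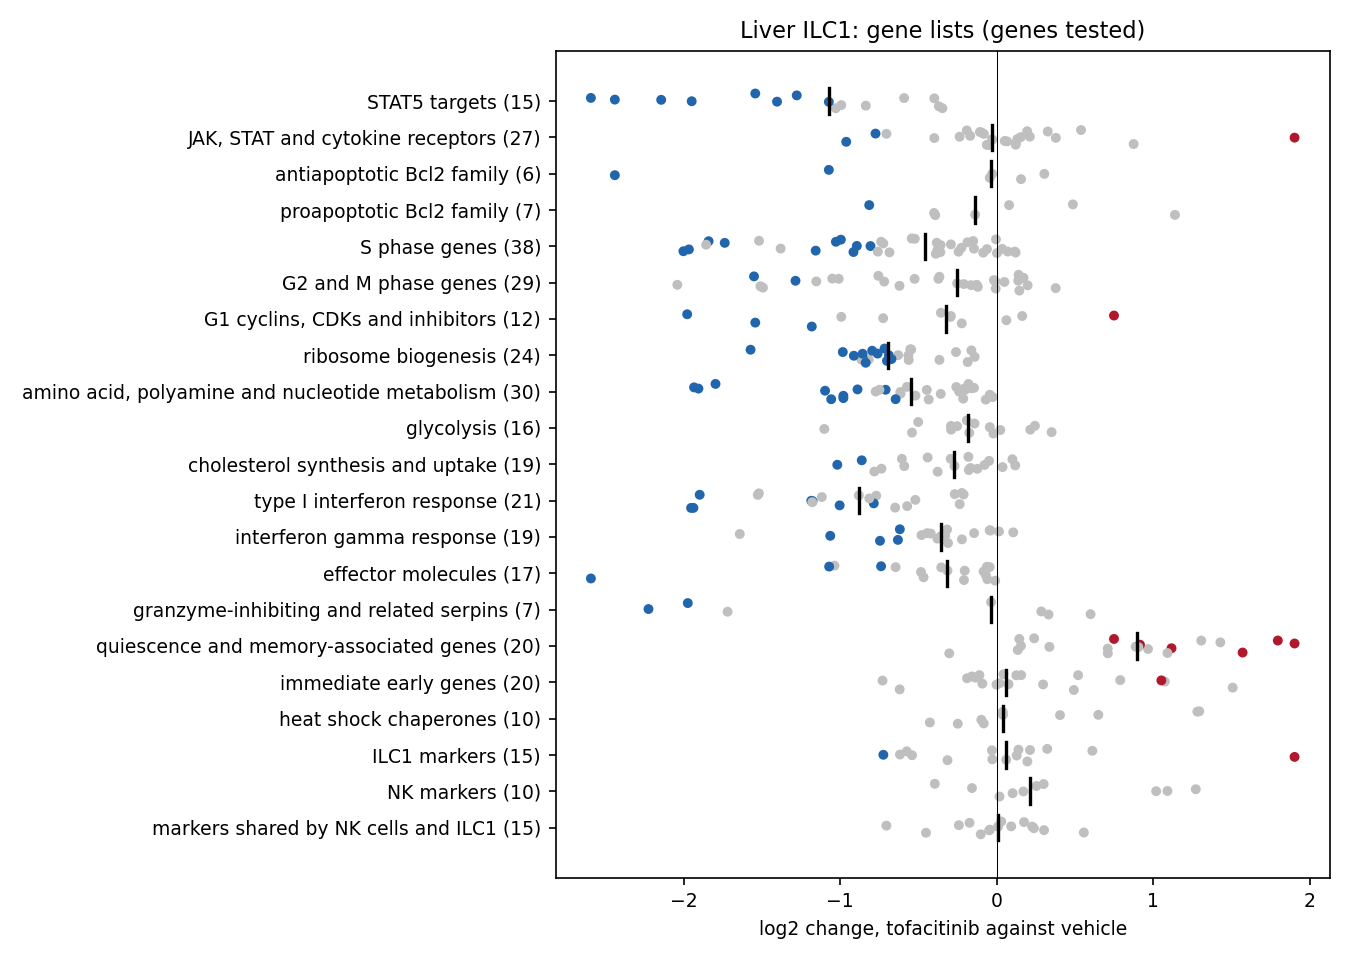
Log2 change (tofacitinib against vehicle) of each tested gene in 21 lists of liver ILC1. Each point is a gene, blue and red points are genes called lower and higher, grey points were not called, the vertical bar is the median of the list, and the number in parentheses is the number of genes tested. The medians of the STAT5 targets and the quiescence list are -1.07 and 0.90.

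Some genes of DNA replication fell. Of 38 tested S phase genes, 10 were lower and none higher, with a median of -0.46 (-0.55 and -0.35 within runs). Of the 38, 27 lay below the vehicle range without overlap. Over all genes tested, 2.18% were called lower and 18.9% lay below. Cdca7, which works with the chromatin remodeler Hells, was at 4.91, 5.39 and 5.15 in vehicle and at 1.31 and 1.12 in tofacitinib (log2 -2.0, SE 0.16, adjusted p = 0.00471). Rrm2, the regulated subunit of the enzyme that makes deoxyribonucleotides, fell from 9.15, 8.55 and 7.79 to 2.83 and 2.16 (log2 -1.74, SE 0.16, adjusted p = 0.00665). Both kept their calls with each library left out in turn. The replicative helicase was unequally affected: Mcm2 went from 29.2, 24.0 and 25.9 to 13.7 and 12.6 (log2 -0.996, SE 0.12, adjusted p = 0.0144), Mcm3 and Mcm6 were also lower (log2 -0.92 and -0.89), and Mcm4 and Mcm7 did not pass (log2 -0.36 and -0.38, adjusted p = 0.205 and 0.157). Mcm2 was called again only without vehicle 2 or without tofacitinib 1. Pclaf, which binds the replication clamp, stood at 5.6, 7.46 and 4.25 in vehicle and at 1.77 and 1.05 in tofacitinib (log2 -1.97, SE 0.30, adjusted p = 0.0276). The clamp itself, Pcna, was at 142, 135 and 161 against 77.4 and 129 and did not pass (adjusted p = 0.269). With run as block 18 S phase genes were lower. Without single libraries, 2 (vehicle 1), 3 (vehicle 2), 4 (vehicle 3), 4 (tofacitinib 1) and 2 (tofacitinib 2) of the 10 were called again.

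E2F factors switch on many of these genes. The letters TTTGGCGC or TTTCCCGC, searched on both strands, were in the promoter windows of 11 of 29 tested S phase genes with a window, against 1.57% of all windows, 3.76% of the tested genes and 6.06% of the lower calls. This search was chosen after the values were seen. Examples from the lower calls follow, with the match in capitals.
Cdca7, chr2:72476137-72476166, plus strand: tgcgtcccggcGCGGGAAAgccggtggccc
Mcm6, chr1:128359797-128359826, minus strand: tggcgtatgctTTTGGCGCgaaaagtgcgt
Hells, chr19:38930917-38930946, plus strand: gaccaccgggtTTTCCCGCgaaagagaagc
Pclaf, chr9:65890307-65890336, plus strand: gcttggagcgcGCGGGAAAgagacccattt
Cdca7 and Pclaf carry the second run of letters on the opposite strand. Pclaf has it across the annotated start.

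Of 29 tested G2 and M phase genes, Top2a and Cks1b fell and the median was -0.25 (-0.21 without tofacitinib 1). With run as block 10 were lower. Top2a, a topoisomerase that untangles chromosomes, was at 5.40, 8.69 and 7.41 in vehicle and at 3.02 and 1.8 in tofacitinib (log2 -1.55, SE 0.27, adjusted p = 0.0409), and was called again only without tofacitinib 1. Mki67, the proliferation marker Ki-67, was at 5.20, 6.24 and 5.70 against 3.35 and 1.10. Both treated libraries were below the controls, yet apart from each other, at -0.88 in run A and -2.27 in run B, and the pooled change did not pass (log2 -1.51, SE 0.40, adjusted p = 0.112, and 0.000737 with run as block). Without tofacitinib 1, the 1 treated library left gave a log2 change of -2.27. In the G1 list, 3 of 12 genes fell and 1 rose. Cdk6, the kinase partner of D cyclins, went from 2.84, 3.72 and 3.78 to 0.925 and 0.679 (log2 -1.98, SE 0.24, adjusted p = 0.0138), a call made again only without tofacitinib 1. Cdkn1b, the inhibitor p27 that holds cells out of the cycle, rose from 30.1, 29.4 and 28.9 to 49.5 in both tofacitinib libraries (log2 0.75, SE 0.10, adjusted p = 0.0218; 0.75 and 0.78 within runs). No fit with 1 library left out called it (adjusted p 0.0647 to 0.121).

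Of 24 tested genes that build ribosomes, 12 fell, none rose, all 24 had both within-run differences below 0, and the median was -0.70. Over all 9366 genes tested, 2.18% were called lower and 2995 had both within-run differences below 0. Rrp12, which exports ribosomal subunits, was at 4.53, 4.13 and 3.95 in vehicle and at 1.40 and 1.29 in tofacitinib (log2 -1.57, SE 0.17, adjusted p = 0.00876). Fbl, the fibrillarin that methylates ribosomal RNA, went from 54.4, 56.4 and 63.0 to 30.5 and 33.3 (log2 -0.86, SE 0.12, adjusted p = 0.0229). The abundant nucleolar proteins did not pass: Npm1 was at 134, 161 and 165 against 114 and 158, and Ncl at 44.9 to 59.0 against 41.8 and 55.1. Leaving out a library ended most of these calls, as 0 (vehicle 1), 3 (vehicle 2), 1 (vehicle 3), 2 (tofacitinib 1) and 0 (tofacitinib 2) of the 12 were called again, while the median stayed between -0.65 and -0.74.

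Supply of amino acids, polyamines and nucleotides showed the same direction, with 10 of 30 tested genes lower, none higher and a median of -0.55. With run as block 16 were lower. Srm, which makes spermidine, was at 15.8, 14.3 and 14.8 in vehicle and at 4.42 and 3.46 in tofacitinib (log2 -1.91, SE 0.14, adjusted p = 0.00324). Slc7a5, a carrier of large neutral amino acids, fell from 7.09, 6.29 and 7.97 to 2.13 and 1.49 (log2 -1.93, SE 0.19, adjusted p = 0.00816), and Ctps, the enzyme of CTP synthesis, from 5.43, 5.66 and 4.78 to 1.22 and 1.72 (log2 -1.8, SE 0.19, adjusted p = 0.00876). Slc3a2, the partner chain of Slc7a5, was at 30.3 to 39.5 and 34.1 and 32.8 (log2 -0.03). The purine enzymes Gart and Atic fell by 1.10 and 0.98 on the log2 scale (adjusted p = 0.00856 and 0.00876). Srm kept its call with each library left out, and Slc7a5, Gart and Atic lost it only without tofacitinib 2 (adjusted p = 0.0536, 0.0597 and 0.0781). Of the 10 calls, 6 were made again without tofacitinib 1 and 2 without tofacitinib 2. Outside the list, calls held in every fit with 1 library left out for Nme1, which balances nucleoside triphosphates (63.6, 68.1 and 66.1 to 24.2 and 28.6), Ppa1, which splits pyrophosphate (12.9, 15.8 and 14.1 to 4.75 and 6.03), and Apex1, an endonuclease of base repair (8.54, 9.71 and 9.86 to 2.81 and 3.20); these were named after their values were seen.

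None of 16 tested glycolysis genes passed (median -0.18, and 2 lower with run as block). Of the 16, 12 were below 0 and 7 wholly below the vehicle range, where 18.9% of all genes tested lay. Without tofacitinib 1 none passed either and the median was -0.15. Ldha, lactate dehydrogenase, was at 142, 128 and 137 in vehicle and at 89.0 and 97.4 in tofacitinib (log2 -0.54, adjusted p = 0.0753), and the carrier Slc2a1 at 13.1 to 17.3 and 15.0 and 15.2. Of 19 cholesterol genes, 16 were below 0 and 2 fell, with a median of -0.27 (-0.19 without tofacitinib 1) and 6 lower under the run block: Lss, which closes the sterol rings, went from 5.14, 4.17 and 4.92 to 2.41 and 2.16 (log2 -1.02, SE 0.16, adjusted p = 0.0303), and Mvd, an enzyme of the mevalonate pathway, from 8.19, 6.45 and 6.4 to 3.85 and 3.73 (log2 -0.86, SE 0.15, adjusted p = 0.0400). Neither was called with any 1 library left out (adjusted p 0.0621 to 0.171 and 0.0831 to 0.192).

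Transcripts of the type I interferon response were lower. All 21 tested genes had both within-run differences below 0, 7 fell, none rose, and the median was -0.88. Over all 9366 genes tested, 2995 had both differences below 0 and 2.18% were called lower. Ifi27l2a was at 5.16, 6.89 and 5.19 in vehicle and at 1.62 and 1.23 in tofacitinib (log2 -1.94, SE 0.20, adjusted p = 0.00876; -2.02 and -1.99 within runs). Usp18, which removes the ubiquitin-like protein ISG15 from others, fell from 3.25, 3.40 and 2.18 to 0.732 and 0.674 (log2 -1.90, SE 0.27, adjusted p = 0.0241). Isg15 itself went from 24.7, 26.8 and 16.8 to 9.32 and 10.2, by -1.51 in run A and -0.71 in run B (log2 -1.19, SE 0.20, adjusted p = 0.0400). Ifi44 had the widest gap between runs after Cish among the calls, at -2.44 and -1.24. Irf9, a transcription factor of the interferon response that was added after its values were seen, fell from 19.2, 19.9 and 17.3 to 11.7 and 10 (log2 -0.79, SE 0.12, adjusted p = 0.0303), and was called with no 1 library left out (adjusted p 0.0644 to 0.174). Cytosolic sensors did not pass, with Ifih1 at 3.48 to 4.0 against 3.03 and 3.40 and Ddx58 at 22.8 to 26.8 against 21 and 21.4. With run as block 15 of 21 were lower. Of the 7 calls, 1 (without vehicle 1), 1 (vehicle 2), 3 (vehicle 3), 1 (tofacitinib 1) and 0 (tofacitinib 2) were called again.

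Of 19 tested genes induced by interferon gamma, 4 fell, none rose and the median was -0.36. The guanylate-binding protein Gbp10 went from 8.45, 11.0 and 7.36 to 4.51 and 3.85 (log2 -1.06, SE 0.19, adjusted p = 0.0411). Igtp, a GTPase of defense against vacuolar parasites, went from 39.2, 38.1 and 38.2 to 27.4 and 22.5 (log2 -0.63, SE 0.12, adjusted p = 0.0499). Irf1, a transcription factor that interferon gamma induces, was at 70.6 to 85.6 in vehicle and at 86.2 and 83.0 in tofacitinib (log2 0.10, adjusted p = 0.736). No call of this list was made again with any 1 library left out. Tgtp1 and its near-identical copy Tgtp2 may share reads, so the fall of Tgtp1 (log2 -0.62) is uncertain.

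The interferon-stimulated response element contains GAAA, any 2 bases and GAAA again, searched here on both strands after the values were seen. It was in 8 of 14 tested type I interferon genes with a window, against 3.44% of all windows, 3.92% of the tested genes and 3.64% of the lower calls. Isg15 and Bst2 are the lower calls among these genes, and their overlapping matches are in capitals.
Isg15, chr4:156200871-156200900, minus strand: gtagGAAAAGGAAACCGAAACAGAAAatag
Bst2, chr8:71537580-71537609, minus strand: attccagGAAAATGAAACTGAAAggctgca
Bst2, a membrane protein that tethers viruses, went from 37.7, 31.9 and 28.5 to 19.3 and 18.3 (log2 -0.79, adjusted p = 0.0416). The windows of Ifih1 and Ddx58 also hold the letters, and neither passed.

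Granzyme B was the effector molecule that changed most. Gzmb, its gene, was at 385, 331 and 519 in vehicle and at 54.0 and 83.0 in tofacitinib. The lowest control was about 4 times the highest treated library, with nearly the same difference in both runs (log2 -2.59, SE 0.25, adjusted p = 0.00783; -2.62 and -2.64). Of 17 tested effector genes, 3 fell and none rose, with a median of -0.32 (-0.14 without tofacitinib 1), and 5 were lower with run as block. Gzmc went from 14.4, 17.9 and 17.5 to 9.79 and 9.89 and the cytokine gene Csf2 from 6.60, 5.61 and 4.45 to 2.33 and 2.81 (adjusted p = 0.0409 and 0.0446), and neither was called with any 1 library left out. Gzma, the most abundant granzyme transcript, was at 828, 1068 and 1393 against 411 and 664, which did not pass (log2 -1.04, adjusted p = 0.127, and 0.00170 with run as block). Prf1, which encodes perforin, was at 66.5 to 81.9 in vehicle and at 70.2 and 74.1 in tofacitinib (log2 -0.06, adjusted p = 0.866). Ifng spanned the controls, at 75.1, 81.3 and 111 against 53.0 and 144, with -0.62 in run A and 0.37 in run B (log2 -0.01, adjusted p = 0.997).

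Serpins, a family whose members block proteases such as granzymes, contained 2 of the largest falls. Serpina3g was at 186, 182 and 172 in vehicle and at 47.2 and 44.4 in tofacitinib (log2 -1.97, SE 0.12, adjusted p = 0.00238; -1.95 in each run), and Serpina3f at 21.1, 22.8 and 18.2 and at 4.97 and 3.77 (log2 -2.23, SE 0.16, adjusted p = 0.00324). They lie near each other on chromosome 12 (mm10; 104236245 to 104241939 and 104214544 to 104221129) in a cluster of close copies, between which reads may have been split. The cytosolic inhibitors Serpinb9 (19.7, 19.5 and 24.9 against 20.2 and 33.2) and Serpinb6b (48.0, 42.5 and 55.7 against 50.5 and 73.5) did not pass. The median of the 7 tested members was -0.04, and 0.23 without tofacitinib 1.

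The genes that rose included transcription factors of resting and memory lymphocytes. Of 20 tested genes of the quiescence list, 6 rose and none fell, with a median of 0.90 (0.72 and 0.89 within runs). Of the 20, 16 lay above the vehicle range. Over all genes tested, 0.491% were called higher and 17.1% lay above. Tcf7, which encodes TCF-1 of lymphoid progenitors and memory cells, was at 19.7, 17.0 and 17.4 in vehicle and at 51.5 and 55.9 in tofacitinib. Both treated values were far above the controls, in both runs alike (log2 1.57, SE 0.12, adjusted p = 0.00351; 1.59 and 1.68), and it was the only rise called with each library left out. Bcl6, a repressor of transcription, went from 1.99, 2.20 and 1.39 to 6.25 and 6.94 (log2 1.79, SE 0.22, adjusted p = 0.0138), and lost its call without vehicle 1 (adjusted p = 0.0655), tofacitinib 1 (0.0678) or tofacitinib 2 (0.131). Klf3, a repressor of the Krüppel-like family, rose from 15.9, 15.6 and 20.6 to 33.6 and 41.7 (log2 1.12, SE 0.17, adjusted p = 0.0273), a call made again only without vehicle 3. Further genes, targets of FOXO factors, missed the threshold: Tsc22d3 was at 10.9, 9.77 and 16.8 against 24.3 and 44.1 (adjusted p = 0.0675), Pik3ip1 at 6.13, 3.91 and 5.51 against 9.27 and 17.5 (0.0753), and Txnip at 129, 104 and 152 against 202 and 274 (0.0857). Their blocked values passed, and 13 of the 20 were higher with run as block. Of the 6 calls, 3 were made again without tofacitinib 1 and 1 without vehicle 1. B cells, T cells and dendritic cells also express Il7r, Bcl6 or Tcf7, and the B cell and dendritic cell sums given above were higher in both tofacitinib libraries; their part in these rises was not tested.

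Other rises lay outside the lists. Of these, Abca1, Rhod and Hist1h4n were low in vehicle and entered the test only through their tofacitinib level. Abca1, an exporter of cholesterol, went from 1.28, 1.41 and 1.03 to 3.12 and 4.15 (log2 1.47, SE 0.24, adjusted p = 0.0350), Tent5c, which lengthens poly(A) tails, from 5.01, 4.76 and 4.76 to 10.3 and 12.9 (log2 1.24, SE 0.13, adjusted p = 0.00876), and the small GTPase gene Rhod from 1.01, 1.19 and 0.777 to 2.72 and 4.01 (log2 1.66, SE 0.29, adjusted p = 0.0411). Tent5c lost its call only without tofacitinib 2 (adjusted p = 0.0869), while Abca1 and Rhod were called in no such fit. Hist1h4n (0.931, 1.21 and 0.940 to 3.36 and 2.73) belongs to a family of near-identical histone genes and is uncertain. Chosen after their values were seen, Foxp1 and Foxo4, both forkhead factors of lymphocyte rest, rose from 6.32 to 6.90 and 7.77 to 9.02 in vehicle to 10.9 and 10.7 and 12.8 and 14.4 in tofacitinib (adjusted p = 0.0276 and 0.0428), and the costimulatory receptor Cd28 from 9.28 to 10.8 to 16.5 and 22.5 (adjusted p = 0.0347). Foxp1 and Foxo4 were called with no 1 library left out (adjusted p 0.0747 to 0.164 and 0.108 to 0.228), and Cd28 only without tofacitinib 1. The largest differences above 0 were not calls: Cd24a was at 0.0136, 0.35 and 0.147 in vehicle and at 6.10 and 1.19 in tofacitinib (log2 3.60, adjusted p = 0.0965), and hemoglobin genes were at log2 2.54 to 3.01 (adjusted p 0.345 to 0.646).

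Immediate early genes, which respond within minutes to handling as well as to signals, split by run. The median of 20 tested genes was -0.23 in run A and 0.33 in run B, and the pooled median went from 0.06 to 0.71 without tofacitinib 1. Jun alone passed, from 41.6, 41.6 and 47.2 to 72.9 and 111 (log2 1.05, SE 0.19, adjusted p = 0.0416), and was called again only without tofacitinib 1. Fos, its partner in AP-1, was at 19.8, 32.7 and 39.8 in vehicle and at 40.3 and 96.0 in tofacitinib (log2 1.07, SE 0.41, adjusted p = 0.241, and 0.0129 with run as block). Nr4a1 was at 5.31, 5.81 and 9.58 against 3.54 and 15.5, on either side of the controls. None of 10 heat shock genes passed, with 3 higher under the run block. Their median was 0.04, and without tofacitinib 1 it was 0.44 with 1 higher call. Hspa1a and Hspa1b, near-identical copies that may share reads, were at 19.4 to 40.2 and 77.9 to 182 in vehicle and at 59.2 and 76.5 and 288 and 301 in tofacitinib (adjusted p = 0.0755 and 0.101).

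Splenic NK cells under the same treatment offered a comparison of responses. The cells also differ in organ and came in separate tables, so cell type, organ and processing cannot be told apart in it. Most ILC1 calls had the same sign there: of 176 lower calls also tested in NK cells, 169 had a change below 0 with a median of -0.53, and all 45 such higher calls were above 0 with a median of 0.40, against a median of 0.00 over 8981 genes tested in both. No library is shared between both comparisons; whether the same mice gave both cell types is not given in the sources used here. A test of the difference between the responses called 2 of the 8981 genes (0.0223%), and 576 had an unadjusted p under 0.05. Tasp1, a protease that activates MLL proteins, was at 22.2, 23.4 and 24.9 in vehicle ILC1 and at 5.10 and 6.38 in tofacitinib ILC1, and at 1.92 to 2.20 and 1.84 and 2.67 in NK cells. It fell in ILC1 (log2 -2.02, SE 0.13, adjusted p = 0.00238) and differed from NK cells by -2.15 (SE 0.23, adjusted p = 0.00716). Stmn1, which destabilizes microtubules in dividing cells, went from 40.7, 55.7 and 41.0 to 13.4 and 15.2 in ILC1 (log2 -1.66, SE 0.17, adjusted p = 0.00837) and was at 103, 127 and 106 and at 159 and 154 in NK cells, where it rose (log2 0.49, adjusted p = 0.0333). The difference was -2.15 (SE 0.21, adjusted p = 0.00668). Without ILC1 tofacitinib 1 neither passed (adjusted p = 0.0520 for both), and no gene did.

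For other genes the difference was not shown. Bcl2 fell by 2.44 and 2.66 on the log2 scale in ILC1 and NK cells, a difference of 0.22 (SE 0.19, adjusted p = 0.984), and Gzmb by 2.59 and 1.53, a difference of -1.06 (SE 0.29, adjusted p = 0.375). Tcf7 had a change of 1.57 in ILC1 and 0.39 in NK cells, a difference of 1.18 (SE 0.16) that missed the threshold (adjusted p = 0.0577). The 29 S phase genes tested in both had a median of 0.05 in NK cells, and Mcm2, for one, had a difference of -0.78 (adjusted p = 0.246).

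**Figure D5:**
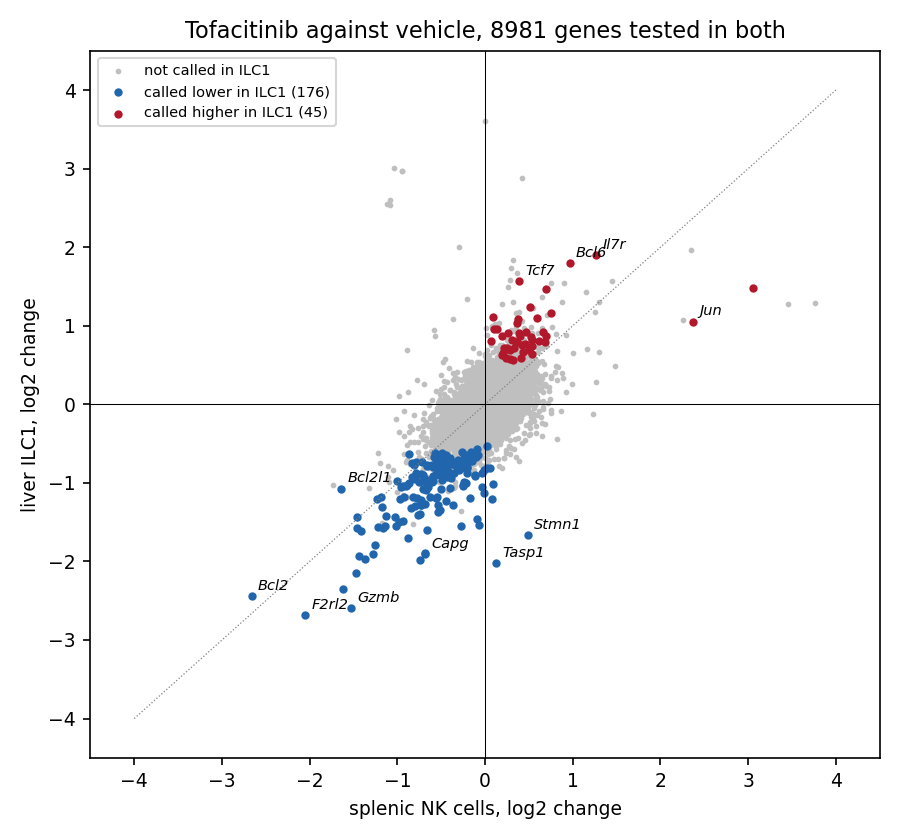
Log2 change with tofacitinib in splenic NK cells (x axis) and in liver ILC1 (y axis) for the 8981 genes tested in both. Each point is a gene, blue and red points are the 176 lower and 45 higher ILC1 calls among them, and the dotted line marks equal changes. Tasp1 and Stmn1 lie at 0.13 and 0.49 in NK cells and at -2.02 and -1.66 in ILC1.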

How the data were processed

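RNA was sequenced from 5 liver ILC1 and 5 splenic NK cell libraries. The submitters' processing notes name CASAVA 1.8.2, TopHat2 2.1.1, Partek and the mm10 genome; from the alignments the authors derived RPKM per gene, and their sample sheet, as deposited, holds the count of alignments of each library. The deposited RPKM tables hold 24981 genes. Columns of fold changes and p-values from the authors' own comparison and their log2 group means were not used. Reads per gene are not held in RPKM, which leaves the scatter among libraries as the measure of precision (median SE 0.145 log2 units).

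Log2(RPKM + 0.1) was taken after scaling each library to the same median over genes with a group mean above 1 on that scale, without 1296 names starting with Mir or Snor. This left 9366 genes, compared with limma 3.58.1 (R 4.3.3; trend, two-sided, Benjamini-Hochberg) on treatment alone; fold changes of low genes are understated by the offset of 0.1. The script was tested on simulated data. The response difference was an interaction over 8981 genes in all 10 libraries. The pairing by run was taken from the sample sheet. Deviations correlated at 0.628 and 0.777 within runs, and at 0.159 and -0.628 by label number. With 2 tofacitinib libraries their deviations are equal and opposite, so -0.628 is the run A value with its sign turned. These values are no separate evidence for the pairing. Named genes were the 10 largest falls and rises among non-overlapping calls, up to 4 per list with the smallest p, genes the paper names for ILC1, the 6 calls with the widest gap between runs and the called differences from NK cells. Others were added after their values were seen, which holds for further list members too. The members and lists were chosen with earlier results of these data known. Coordinates of genes are from GENCODE M21. An item of the lists is counted but not reported here by name.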

Additional observations from a re-analysis of the deposited data

Results flagged for a closer look

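The response to tofacitinib differed between liver ILC1 and splenic NK cells for 2 genes, by a test of the difference itself. Cell type, organ and processing cannot be told apart in that test. For Tasp1 the ILC1 change minus the NK change was -2.15 on the log2 scale (SE 0.23, adjusted p = 0.00716), and its level in vehicle was 22.2 to 24.9 in ILC1 and 1.92 to 2.20 in NK cells, in tables that were made separately. For Stmn1 it was -2.148 (SE 0.21, adjusted p = 0.00668), with a fall in ILC1 and a rise in NK cells. Leaving out any 1 of the other 9 libraries kept both calls (adjusted p 0.00245 to 0.0419), while without ILC1 tofacitinib 1 both stood at 0.0520.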

How the results depend on the processing

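The count of lower and higher genes (204 and 46) moved with the processing. It was 26 and 18 without scaling, 49 and 4 with no filter on low values, and 330 and 115 with robust empirical Bayes. Each gene's own variance gave 0 and 0 (829 and 602 at an unadjusted p under 0.05, other limma fits as given here). The sequencing run as replicate block gave 496 and 254, on 1 residual degree of freedom. The label number as block, a pairing other than that of the runs, gave 54 and 8. Leaving out 1 library gave 16 to 77 lower and 2 to 18 higher genes. Quantile normalization, an offset of 1 or 0.01 and a group mean above 2 gave 187 to 199 and 45 to 62. Of the 250 calls, 250 were made again with run as block or robust fits and 25 without scaling; the cause was not tested. The interaction called 13 genes without scaling and 0 to 3 with 1 library left out; Tasp1 was not tested with a group mean above 2. Genes past 1 log2 unit in both runs numbered 51 and 12 with an offset of 1, 169 and 71 with no filter, and 18 higher with a group mean above 2.

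Signs turned only in genes that were not called. Eomes was at -0.071 with run as replicate block, and from -0.25 (without tofacitinib 2) to 0.59 (without tofacitinib 1) with 1 library left out. Ifng was at 0.00056 without scaling, 0.082 with quantile normalization, 0.0036 with a group mean above 2 and 0.16 with the label number as block, and from -0.73 (without tofacitinib 2) to 0.71 (without tofacitinib 1). Mcl1 ranged from -0.10 (without tofacitinib 2) to 0.41 (without tofacitinib 1). Tbx21 was at -0.032 with the label number as block, and from -0.095 (without tofacitinib 1) to 0.14 (without vehicle 1).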
